A study of Homo sapiens with 12 samples.

Results

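The ERK pathway feedback inhibitors described here are 10 genes: DUSP4, DUSP5, DUSP6, SPRY1, SPRY2, SPRY4, SPRED1, SPRED2, PHLDA1 and ERRFI1. They were taken by symbol from a table of raw read counts that lists 44659 genes, and all 10 were among the 15916 genes that passed the filter on low counts. RNA was sequenced from A375 cells, an established human melanoma line whose BRAF kinase carries an activating mutation, in 4 groups of 3 libraries each. Control cells (CC) were grown for 72 h with DMSO, the solvent of the drugs. Treated cells (TC) were grown for 72 h with 500 nM vemurafenib, a BRAF inhibitor, and 500 nM cobimetinib, a MEK inhibitor (MAPKi), and were harvested on day 0. Persister cells (PC) went through the same 72 h of MAPKi and then 2 days without drug, and recovered cells (RC) went through the same 72 h and then 9 days without drug. CC and TC were both harvested on day 0, whereas PC and RC each had a harvest day of their own, so that day and group cannot be told apart for them. The labels call the RNA cytoplasmic and describe a cytoplasmic fraction, whereas the study's methods speak of total RNA for RNA-seq, and both give depletion of ribosomal RNA. All groups come from this 1 line. The labels give 3 replicates per group without saying that they were separate cultures, so p-values measure the spread between these libraries, which may be technical.

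ERK is the last kinase of a cascade in which RAS activates RAF, RAF activates MEK, and MEK phosphorylates ERK. Active ERK raises the transcription of genes whose products act back on the cascade, and in melanoma cells with mutant BRAF this feedback is known to run at a high level. The feedback proteins act at different steps. The dual-specificity phosphatases remove phosphate from ERK itself. Sprouty (SPRY) proteins act between the receptors and RAF, and SPRED proteins bring the RAS inactivator NF1 to the membrane. ERRFI1 binds and inhibits EGFR and related receptors at the cell surface, and PHLDA1 is a pleckstrin homology-like protein that is counted among the transcriptional readouts of ERK activity.

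Total counts ran from 37773389 to 55567097 per library, and 3 counts corresponded to 0.0534 to 0.0785 CPM (counts per 1000000, with TMM-normalized library sizes). This floor covers counting error only. SOX10, a transcription factor of melanocytes, was measured at 659 ± 7.51 CPM in CC, and all 10 markers of the melanocyte lineage were tested. Their summed level ran from 1849.8 to 2028 CPM in CC, from 7263 to 10475 CPM in TC, from 3683 to 5302 CPM in PC and from 1651 to 1714 CPM in RC. Most of the higher sum in TC was DCT, a melanin enzyme, at 407 CPM on average in CC and 6452 CPM in TC. By contrast S100B had 264 CPM in CC and 140 CPM in TC. MITF overlapped between the groups, at 306, 303 and 476 CPM in CC and 407, 321 and 236 CPM in TC. Of the markers of other cell types, the fibroblast list held 3 tested genes of 6, with THY1 at 0 in every library. It summed to 28.5 to 38.3 CPM in CC, 8.07 to 9.51 in TC, 9.57 to 13.5 in PC and 22.0 to 24.4 in RC. Most of that sum was LUM, at 27.8 CPM on average in CC, 6.75 in TC and 6.72 in PC. PDGFRA had 3.79 CPM in CC and 1.23 in PC, whereas COL1A1 had 0.55 and 3.57. The keratinocyte list held 2 tested genes of 6, with KRT1 at 0 in every library. It summed to 41.0 to 52.5 CPM in CC, 88.8 to 94.6 in TC, 95.2 to 104 in PC and 55.8 to 61.1 in RC. KRT10 made up nearly all of it, at 45.9 CPM on average in CC and 91.8 in TC, whereas EPCAM had at most 0.339 CPM in any library. The leukocyte list, with 2 tested of 4, summed to 128 to 174 CPM in CC, 719 to 1065 in TC, 633 to 774 in PC and 119 to 132 in RC. Nearly all of that sum was CD68, a lysosomal membrane protein. PTPRC, a general leukocyte marker, went the other way, at 0.555 CPM on average in CC, 0.042 in TC, 0.140 in PC and 0.606 in RC. CD3E, of T cells, had at most 2 counts in any library. The endothelial list, with 1 tested of 3, summed to at most 5.23 CPM in any library, with CDH5 at 0 in all. The part of these lists in the changes of the feedback inhibitors was not tested. In bulk RNA, fewer cells of a type and less RNA per cell cannot be told apart.

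CC replicate 3 stood apart for these genes and is described before the comparisons. It was the highest CC library for 10 of 10 feedback inhibitors, whereas it was the highest for 34.4% of all genes tested. For 7 of the 10 its level was over 1.5 times the mean of CC replicates 1 and 2, against 6.82% of all genes tested. The ratio was 3.45 for DUSP6, 2.51 for DUSP5, 2.35 for SPRY4, 2.09 for ERRFI1, 1.97 for DUSP4, 1.59 for SPRY1, 1.54 for SPRY2, 1.41 for both SPRED1 and SPRED2, and 1.09 for PHLDA1. The median ratio of the members was 1.78, against 0.976 over all genes. Of the 10 other ERK output genes tested, EGR1, an immediate early gene, had in CC replicate 3 a level 9.96 times the mean of replicates 1 and 2. The ratio was 2.18 for FOSL1, 1.78 for FOS, between 1.24 (ETV5) and 1.38 (CCND1) for those 2 genes, EPHA2 and MYC, and 1.02 for ETV4, 0.973 for ETV1 and 0.813 for EPHA4. The spread between replicates was widest in CC. The median coefficient of variation of the members was 35.9% in CC, 12.5% in TC, 10.6% in PC and 6.03% in RC, beside 14.2%, 8.77%, 6.91% and 6.12% for all genes tested. Values without CC replicate 3 are therefore given beside each feedback inhibitor whose call it changed. Because it was the highest CC library for all 10, leaving it out raised each member's change against CC. Calls gained in that way follow in part from this choice of library.

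**Figure D1:**
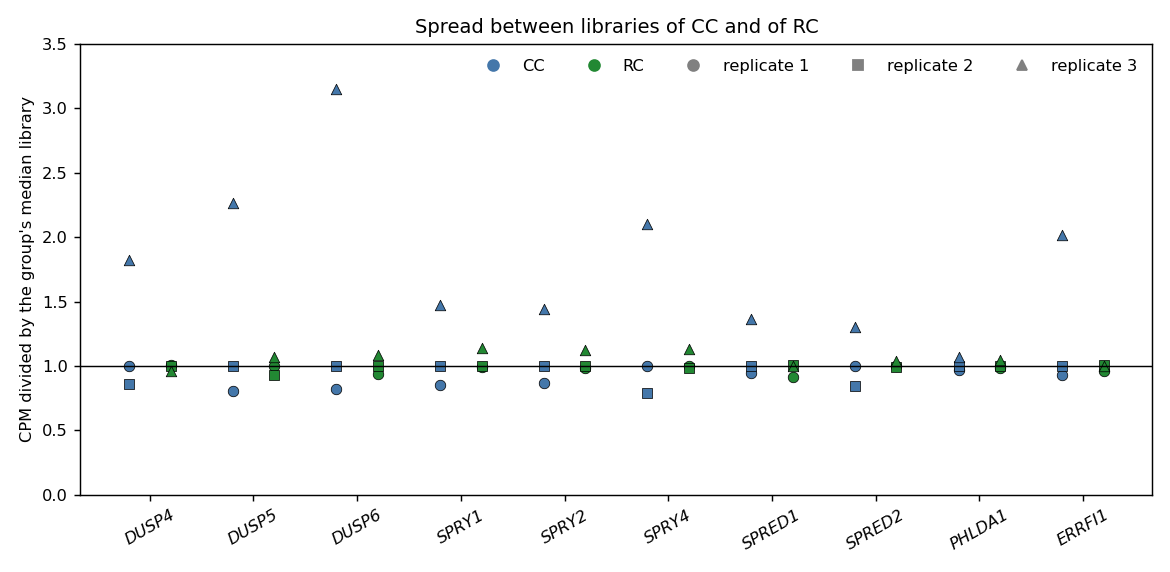
CPM of each CC and RC library (3 per group) divided by the group's median library, on a linear axis, for the 10 feedback inhibitors. The triangle of CC replicate 3 is the highest CC symbol for every gene, while the RC libraries lie close to 1.

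The first comparison asked how feedback inhibitor mRNAs differed after 72 h of MAPKi. In TC, 9 of the 10 genes were lower than in CC, and every TC library lay below every CC library for each of these 9. How many of all genes tested separate in this way was not counted, here or in the comparisons below. By the fold change of the edgeR fit, SPRY4 fell the most, to 0.374% of its CC level. It was followed by SPRY1 (1.13%), DUSP6 (2.50%), DUSP4 (6.05%) and SPRY2 (12.9%). PHLDA1 (38.7%), SPRED2 (50.3%), ERRFI1 (56.5%) and SPRED1 (65.7%) fell by less, and DUSP5 did not pass the test. A gene was called at an adjusted p under 0.05 in edgeR's quasi-likelihood test with Benjamini-Hochberg adjustment over all genes tested, a rule by which 34.7% of all genes were lower and 33.2% higher in TC. By the stricter test for a change beyond 1.5-fold, 7 members were lower and 0 higher, against 19.3% and 16.1% of all genes. DESeq2 and an unadjusted p under 0.05 in edgeR's tests also gave 0 higher members, by either rule. The median log2 fold change was -2.16 over the members and -0.019 over all genes.

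Promoters are shown because the genes with a RefSeq entry all fell in TC. RefSeq, on assembly GRCh38.p14, held 12 windows of 300 bases for 8 of the 10 genes, each from 250 bases before to 50 bases after an annotated start, and DUSP4 and DUSP5 had no entry. Windows were searched on both strands for the ETS motif CCGGAAG, the AP-1 motif TGANTCA, the CRE motif TGACGTCA, the CArG box and the TATA motif TATAAA. These are found in 10.3%, 7.71%, 1.85%, 1.29% and 11.5% of the 35116 promoter windows of all genes, and in 15.5%, 5.65%, 2.67%, 1.14% and 6.90% of the 16859 windows of genes that passed the count filter, as all members did. Of the 12 windows, 1 held the ETS letters (SPRY1), 1 held the AP-1 letters (SPRED2, at 2 places), 1 held the TATA letters (the same SPRED2 window), and 0 held the CRE or the CArG box. The AP-1 letters in the SPRED2 window were centred at positions -3 and 37 from the start, the TATA letters at -28, and the ETS letters in the SPRY1 window at -64. SPRED2 and SPRY1 each had another window, at chr2:65432550-65432849 and chr4:123396545-123396844, without the letters of any motif. Which start A375 cells use was not tested. In GENCODE v44 SPRY4, on the minus strand, begins at 142326455, upstream of its only window, so that start was not searched. A match is a description of letters only. The 4 windows below are those of SPRY4 and DUSP6, which fell the most in TC among the genes with a single window, and the 2 windows that held a motif. Sequences run 5′ to 3′ on the gene's strand, and capitals mark the motif letters and the annotated start base.
SPRY4 (chr5:142324198-142324497, minus strand): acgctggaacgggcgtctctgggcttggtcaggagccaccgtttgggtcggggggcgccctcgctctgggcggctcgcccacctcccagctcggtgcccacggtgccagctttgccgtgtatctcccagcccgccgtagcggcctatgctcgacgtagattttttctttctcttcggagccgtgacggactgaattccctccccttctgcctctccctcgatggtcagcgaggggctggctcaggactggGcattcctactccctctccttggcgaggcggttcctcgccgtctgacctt
DUSP6 (chr12:89352452-89352751, minus strand): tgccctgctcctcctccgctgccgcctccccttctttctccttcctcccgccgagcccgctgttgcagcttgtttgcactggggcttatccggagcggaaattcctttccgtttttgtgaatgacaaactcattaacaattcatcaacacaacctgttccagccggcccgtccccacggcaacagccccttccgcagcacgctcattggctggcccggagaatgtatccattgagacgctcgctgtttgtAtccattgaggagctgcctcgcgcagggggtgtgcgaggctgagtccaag
SPRY1 (chr4:123398136-123398435, plus strand): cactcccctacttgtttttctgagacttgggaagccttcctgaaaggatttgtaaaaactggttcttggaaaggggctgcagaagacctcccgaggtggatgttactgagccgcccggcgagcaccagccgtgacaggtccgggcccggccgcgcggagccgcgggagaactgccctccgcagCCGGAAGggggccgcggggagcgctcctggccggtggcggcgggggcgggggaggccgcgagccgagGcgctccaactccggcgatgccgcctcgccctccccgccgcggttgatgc
SPRED2 (chr2:65366729-65367028, minus strand): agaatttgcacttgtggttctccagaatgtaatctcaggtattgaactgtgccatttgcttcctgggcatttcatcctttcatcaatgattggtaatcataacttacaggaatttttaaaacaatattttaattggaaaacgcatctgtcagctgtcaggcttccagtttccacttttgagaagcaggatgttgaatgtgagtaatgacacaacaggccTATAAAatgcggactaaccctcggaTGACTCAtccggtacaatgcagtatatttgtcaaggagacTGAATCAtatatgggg

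Of the phosphatases, DUSP4 and DUSP6 fell and DUSP5 did not pass the test. DUSP6, a cytoplasmic phosphatase that acts on ERK, was measured at 77.6, 94.4 and 297 CPM in the 3 CC libraries and at 5.26, 3.25 and 3.32 CPM in TC. Its log2 fold change was -5.32 ± 0.49 (SE; n = 3 libraries per group; adjusted p = 1.1e-06 by edgeR's quasi-likelihood test). Without CC replicate 3 the change was -4.45 and was still called. DUSP4, a nuclear phosphatase of ERK, JNK and p38, had 343, 294 and 626 CPM in CC and 31.5, 24.8 and 20.3 CPM in TC, with a change of -4.05 ± 0.27 (adjusted p = 6.0e-08 in the same edgeR test). For both genes the groups lay far apart, with no CC library near any TC library. DUSP5, a nuclear phosphatase of ERK, had 9.90, 12.2 and 27.7 CPM in CC and 20.5, 19.9 and 19.0 CPM in TC. Its TC libraries lay above CC replicates 1 and 2 and below CC replicate 3, with a change of 0.25 (95% interval -0.36 to 0.86, adjusted p = 0.452 by edgeR). Without CC replicate 3, DUSP5 was called higher in TC, by 0.84 (adjusted p = 2.1e-05 by edgeR). Over the 18 alternatives its change ran from -0.02 to 0.84, and no other alternative changed the call.

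All 3 Sprouty genes fell in TC. SPRY4 had 342, 270 and 720 CPM in CC and 1.79, 1.46 and 1.72 CPM in TC, which differ by -8.06 ± 0.39 as log2 fold change (SE; adjusted p = 3.8e-09 by edgeR's quasi-likelihood test). SPRY1 had 39.2, 46.0 and 67.8 CPM in CC and 0.674, 0.537 and 0.522 CPM in TC, which rest on 26, 21 and 28 counts. Its change was -6.47 ± 0.23 (adjusted p = 3.7e-10 by edgeR). SPRY2 had 152, 175 and 251.6 CPM in CC and 29.1, 23.3 and 22.4 CPM in TC, with a change of -2.95 ± 0.17 (adjusted p = 2.1e-08 by edgeR). By the fitted change SPRY2 thus kept 12.9% of its CC level in TC, whereas SPRY1 kept 1.13% and SPRY4 0.374%. An antisense gene, SPRY4-AS1, overlaps SPRY4 and had 2.52 ± 0.696 CPM in CC and 0.042 ± 0.0282 CPM in TC. Use of the strand in counting was not stated, so reads of the pair may not be fully told apart, although the antisense level in CC was small beside that of SPRY4.

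The SPRED genes and the receptor inhibitor changed less. SPRED2 had 119, 99.9 and 154 CPM in CC and 61.5, 63.8 and 62.3 CPM in TC, which differ by -0.99 ± 0.12 as log2 fold change (SE; adjusted p = 1.2e-05 by edgeR's quasi-likelihood test). SPRED1 had 120, 127 and 174 CPM in CC and 96.1, 97.8 and 83.5 CPM in TC, and its change of -0.61 ± 0.12 was called (adjusted p = 0.00074 by edgeR) but not beyond 1.5-fold. The groups of both genes did not overlap. PHLDA1 had 1359, 1407 and 1509 CPM in CC and 705, 543 and 408 CPM in TC, with a change of -1.37 ± 0.16 (adjusted p = 9.6e-06 by edgeR). Its 3 CC libraries were the closest to each other of any member, whereas its TC libraries had a 26.9% coefficient of variation. ERRFI1 had 53.1, 57.2 and 115 CPM in CC and 40.1, 43.3 and 44 CPM in TC. Its change of -0.82 ± 0.22 was called (adjusted p = 0.0061 by edgeR) but not beyond 1.5-fold, and it was -0.37 (adjusted p = 0.00055) without CC replicate 3.

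**Figure D2:**
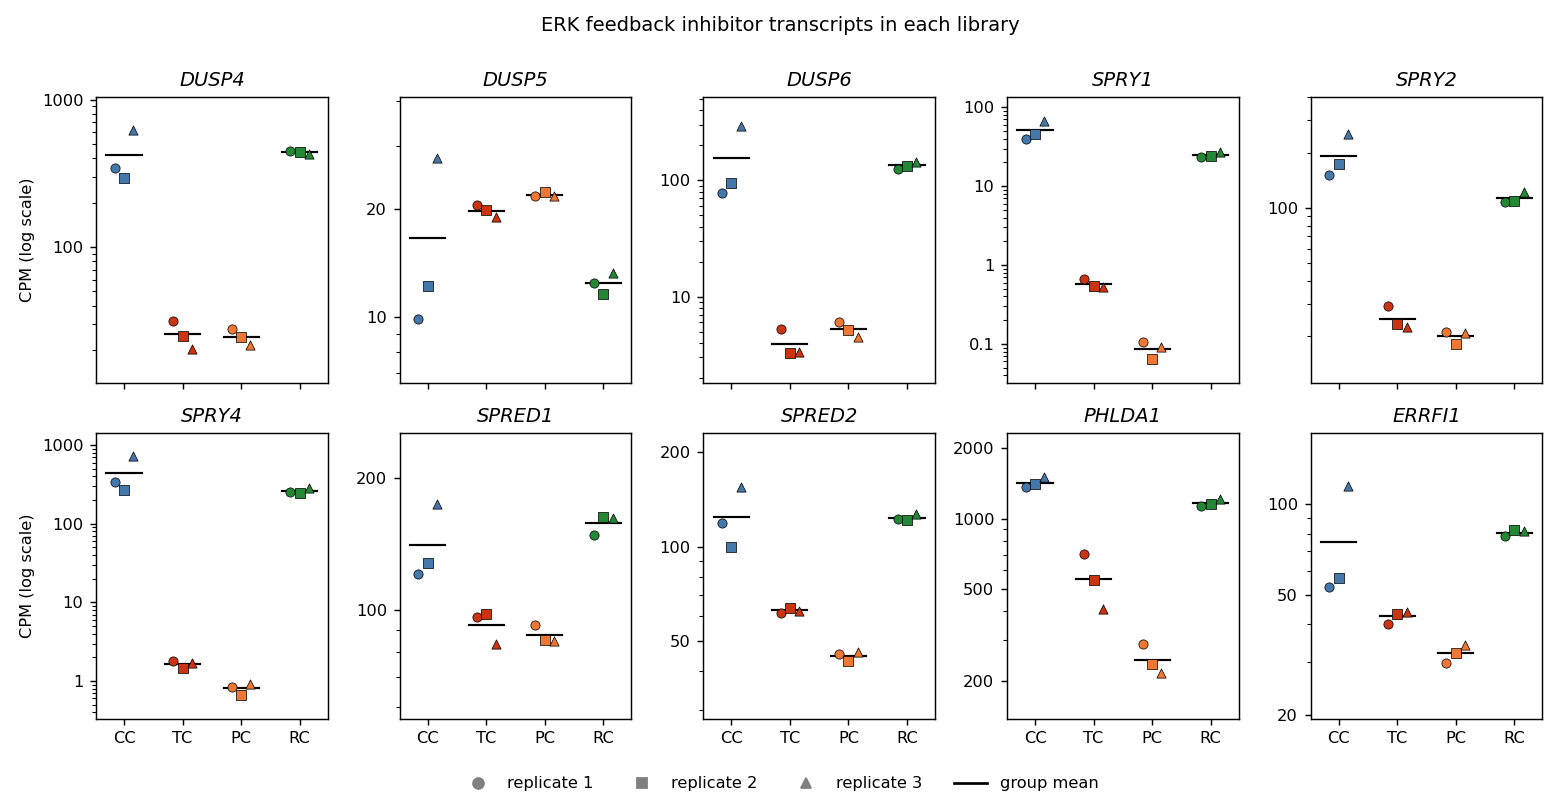
CPM of each of the 12 libraries on a log axis, 1 panel per gene, with symbols for replicates 1 to 3 and a line at the mean of each group (n = 3). For 9 genes the TC and PC libraries lie below all CC libraries, and for DUSP5 they lie inside the range of CC, between its replicates 2 and 3.

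Levels can be compared between genes only per length of transcript. On CPM per kilobase of annotated exon, the members' order in CC was PHLDA1 (241 ± 13), SPRY4 (67.7 ± 36.8), SPRY2 (60.0 ± 16.2), DUSP4 (57.9 ± 24.6), DUSP6 (40.5 ± 31.6), SPRED2 (22.6 ± 5.04), SPRED1 (18.2 ± 3.78), ERRFI1 (18.0 ± 8.33), SPRY1 (12.9 ± 3.77) and DUSP5 (6.56 ± 3.83). PHLDA1 stood above SPRY4 by more than their spread, whereas no pair of neighbours below PHLDA1 differed by more than the sum of their SDs. In TC, PHLDA1 remained first at 93.4 ± 25.1, followed by SPRED1 (11.9 ± 1.01), SPRED2 (11.4 ± 0.217) and ERRFI1 (10.2 ± 0.492), and SPRY1 (0.146 ± 0.0211) and SPRY4 (0.252 ± 0.0266) were last. DUSP5, last in CC, stood at 7.80 ± 0.298 in TC, beside SPRY2 at 7.76 ± 1.13. In RC the first 5 were PHLDA1 (197 ± 6.41), DUSP4 (60.4 ± 1.5), SPRY4 (40.0 ± 3.06), SPRY2 (35.3 ± 2.57) and DUSP6 (34.9 ± 2.54), and DUSP5 (4.90 ± 0.336) was last again. The lengths came from GENCODE v44 and not from the annotation used for counting.

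After 2 days without the drugs, most feedback inhibitor mRNAs were still below CC. In PC, 9 of 10 members were lower than in CC and 0 were higher by edgeR's test, against 35.9% and 33.2% of all genes tested. Beyond 1.5-fold, 8 were lower and 0 higher, against 19.9% and 17.2% of all genes, and DESeq2 and unadjusted p-values also gave 0 higher by either rule. The median log2 fold change was -2.89 over the members and -0.038 over all genes. TC and PC were set against the same CC libraries, so these counts are not independent of those for TC.

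SPRY1 was close to the level of 3 counts in PC, and SPRY4 was low but above it. SPRY1 had 4, 3 and 4 counts in the PC libraries, or 0.105, 0.0652 and 0.0925 CPM. The summed 11 counts, against 6829 in CC, give a level 599-fold lower in PC, with a 95% counting interval of 335 to 1201. SPRY4 had 32, 31 and 40 counts in PC, or 0.837, 0.674 and 0.925 CPM and 0.183% of its CC mean, with a fitted change of -9.10 ± 0.42 (SE; adjusted p = 2.7e-09 by edgeR's quasi-likelihood test). SPRY2, at 21.2, 18.2 and 20.9 CPM, was at 10.4% of CC with a change of -3.26 ± 0.18 (adjusted p = 1.0e-08 by edgeR). All PC libraries of the 3 Sprouty genes lay below those of CC.

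Among the phosphatases, DUSP4 had 27.8, 24.4 and 21.4 CPM in PC (5.83% of CC) and DUSP6 had 6.09, 5.13 and 4.51 CPM (3.35% of CC). Their changes against CC were -4.10 ± 0.27 and -4.90 ± 0.48 (adjusted p = 5.3e-08 and 1.7e-06 by edgeR), and that of DUSP6 was -4.03 without CC replicate 3. DUSP5 had 21.7, 22.2 and 21.7 CPM in PC, and its change of 0.39 (95% interval -0.22 to 1.01) was not called (adjusted p = 0.228 by edgeR). Without CC replicate 3 it was called higher by 0.99 (adjusted p = 5.2e-06). Over the 18 alternatives the change of DUSP5 ran from 0.13 to 0.99, and no other alternative changed the call. PHLDA1 had 288, 237 and 218 CPM in PC, or 17.4% of CC, and SPRED2 had 45.5, 43.0 and 46.1 CPM, or 36.1% of CC. ERRFI1 had 29.7, 32.1 and 34.2 CPM (42.5% of CC), with a change of -1.23 ± 0.23 that was -0.77 without CC replicate 3. SPRED1 had 92.4, 85.1 and 84.8 CPM (62.1% of CC), the smallest of the 9 falls and the only called change that was not beyond 1.5-fold.

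**Figure D3:**
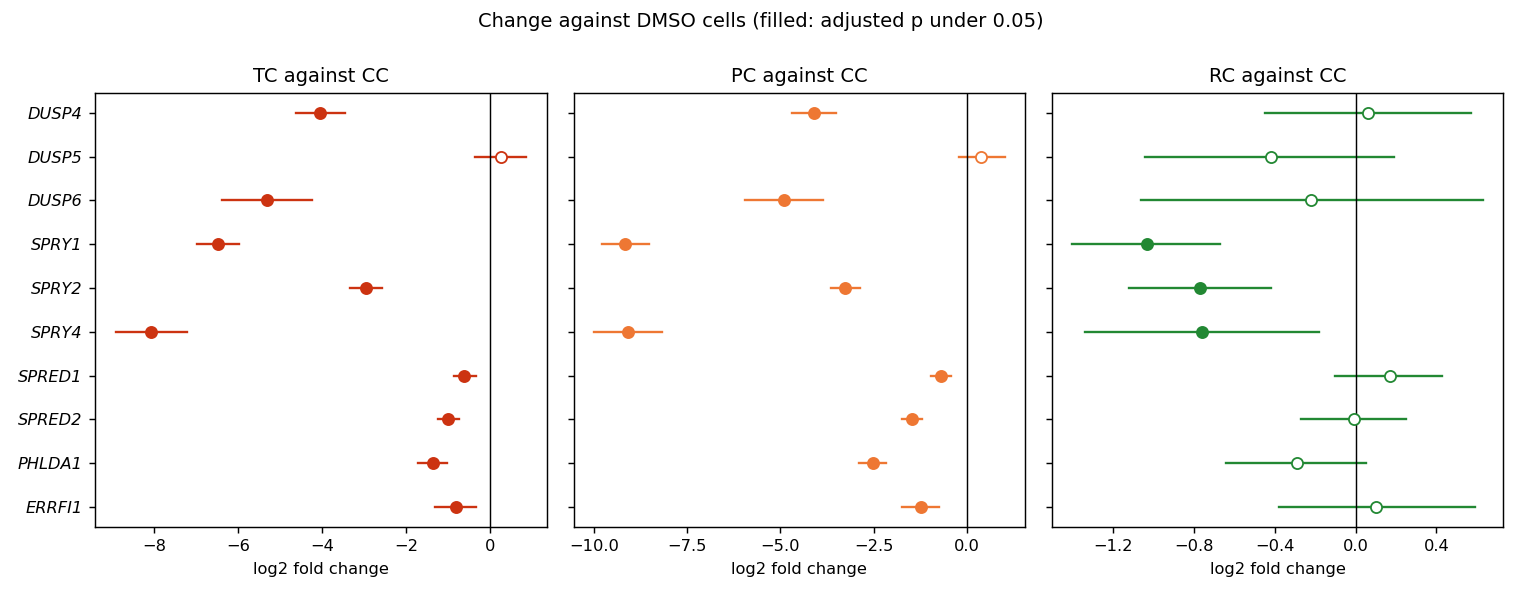
Log2 fold change of each member in TC, PC and RC against CC, with its 95% interval from the edgeR fit of 3 libraries per group, on a separate axis for each comparison. Filled points passed an adjusted p under 0.05: 9 in TC, 9 in PC and 3 in RC.

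In RC, after 9 days without drug, the members' means ran from 48.8% (SPRY1) to 112% (SPRED1) of those in CC. Of the 10 genes, 3 were lower and 0 higher than in CC, a share to be read against the 19.1% of all genes that were lower and the 18.2% that were higher by the same test. Beyond 1.5-fold, 0 members were lower and 0 higher, against 2.52% and 1.35% of all genes. DESeq2 and unadjusted p-values gave 0 higher members too, by either rule, and beyond 1.5-fold DESeq2 gave 0 lower and an unadjusted p under 0.05 gave 2. Without CC replicate 1, or without CC replicate 2, 1 member was lower beyond 1.5-fold. The median log2 fold change was -0.26 over the members and 0.004 over all genes. The 3 lower genes were the Sproutys. SPRY1 had 23.7, 23.9 and 27.2 CPM in RC, all below the lowest CC library at 39.2, with a change of -1.03 ± 0.17 (SE; adjusted p = 0.00057 by edgeR's quasi-likelihood test). The test for a change beyond 1.5-fold gave it an adjusted p of 0.0529. SPRY2 had 108, 109 and 123 CPM, also all below CC, with a change of -0.77 ± 0.16 (adjusted p = 0.003 by edgeR). SPRY4 had 253, 249 and 285 CPM, a range that overlapped CC, and its change of -0.76 ± 0.27 (adjusted p = 0.0417 by edgeR) was lost under 11 of 18 alternatives. These included leaving out CC replicate 3, or any 1 library of TC, PC or RC, with adjusted p between 0.0509 and 0.114 in edgeR.

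The other 7 members did not pass the test between RC and CC. DUSP4 had 448, 444 and 427 CPM in RC, inside the range of CC, with a 95% interval of the log2 fold change from -0.45 to 0.57. DUSP6 had 125, 134 and 145 CPM, above CC replicates 1 and 2 and below replicate 3, with an interval from -1.06 to 0.63. ERRFI1 lay in the same place, at 78.4, 82.3 and 81.4 CPM (interval -0.38 to 0.59). SPRED1 had 148, 163 and 162 CPM (interval -0.10 to 0.43) and SPRED2 had 122, 121 and 127 CPM (interval -0.27 to 0.25). DUSP5 had 12.4, 11.6 and 13.3 CPM (interval -1.04 to 0.19). PHLDA1 had 1136, 1151 and 1208 CPM, all below the CC libraries, but its change of -0.29 was not called (adjusted p = 0.168 by edgeR). With only the 2 groups compared in the fit, PHLDA1 was called lower (-0.29, adjusted p = 0.0177 by edgeR). Several of these calls depended on CC replicate 3, the highest CC library for every member, so that leaving it out raised each change. Without CC replicate 3, 4 members were higher in RC by edgeR. These were DUSP6 (0.65, adjusted p = 0.0078), ERRFI1 (0.55, 0.000161), DUSP4 (0.47, 0.0297) and SPRED1 (0.35, 0.00498). In that setting 2 were lower, SPRY1 (-0.77, 0.00033) and SPRY2 (-0.52, 0.00383). Over the 18 alternatives the lowest changes were -0.54 for DUSP6, -0.10 for ERRFI1, -0.14 for DUSP4 and 0.06 for SPRED1. In the same setting 21.2% of all genes were higher and 20.3% lower, and SPRY4, at -0.22 (adjusted p = 0.106), was not called.

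From TC to PC, over the first 2 days without drug, feedback inhibitor mRNAs fell further or did not pass the test. By edgeR's test 3 members were lower in PC than in TC and 0 were higher, against 12.5% and 12.2% of all genes tested. Beyond 1.5-fold, 2 were lower and 0 higher, against 1.15% and 2.33% of all genes. DESeq2 and unadjusted p-values also gave 0 higher by either rule. SPRY1 fell by 2.69 ± 0.40 on the log2 scale (adjusted p = 0.00046 by edgeR), from 75 summed counts to 11, which as a ratio is 6.62-fold with a 95% counting interval of 3.5 to 13.8. PHLDA1 fell by 1.15 ± 0.16 (adjusted p = 0.00031 by edgeR), and all its PC libraries lay below the lowest TC library. SPRED2 fell by 0.48 ± 0.12 (adjusted p = 0.0124 by edgeR), not beyond 1.5-fold, and this call was lost without PC replicate 2 (adjusted p = 0.0502). SPRY4, SPRY2 and ERRFI1 also had every PC library below every TC library, with changes of -1.03, -0.31 and -0.41 that were not called (adjusted p = 0.156, 0.208 and 0.221 by edgeR). DESeq2 called SPRY4 lower, by -1.01 (adjusted p = 0.02). DUSP5 had every PC library (21.7 to 22.2 CPM) above every TC library (19.0 to 20.5 CPM), and it was not called in edgeR or in DESeq2 (0.16, adjusted p = 0.708). Without CC replicate 3, whose spread enters the common fit, SPRY4 and ERRFI1 were called as well, giving 5 lower members. Without TC replicate 1, PC replicate 2 or PC replicate 3, each left out in turn, 1 member in place of 2 was lower beyond 1.5-fold. DUSP4 and DUSP6 overlapped between TC and PC, with changes of -0.05 and 0.42 (95% intervals -0.59 to 0.49 and -0.65 to 1.48).

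Between day 2 and day 9 without drug, 9 of the 10 mRNAs rose. In RC, 9 of 10 were higher than in PC, all 9 beyond 1.5-fold, and 1 was lower by edgeR's test, against 35.7% of all genes higher, 20.2% higher beyond 1.5-fold, 34.2% lower and 18.5% lower beyond 1.5-fold. The median log2 fold change was 2.37 over the members and 0.015 over all genes. SPRY4 rose by 8.34 ± 0.41, SPRY1 by 8.13 ± 0.29, DUSP6 by 4.69 ± 0.47 and DUSP4 by 4.16 ± 0.27 (SE; adjusted p = 4.2e-09, 3.5e-10, 2.2e-06 and 4.4e-08 by edgeR). SPRY2 (2.50), PHLDA1 (2.23), SPRED2 (1.46), ERRFI1 (1.33) and SPRED1 (0.85) rose less, and no PC library reached any RC library for these 9 genes. DUSP5 moved the other way, by -0.82 ± 0.28 (adjusted p = 0.0211 by edgeR), with all RC libraries (11.6 to 13.3 CPM) below all PC libraries (21.7 to 22.2 CPM). This change did not pass the test beyond 1.5-fold, where 0 members were lower in edgeR, in DESeq2 and at an unadjusted p under 0.05, and it was not called without RC replicate 2 (-0.78, adjusted p = 0.0612). Without CC replicate 3, 1 member was lower beyond 1.5-fold.

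**Figure D4:**
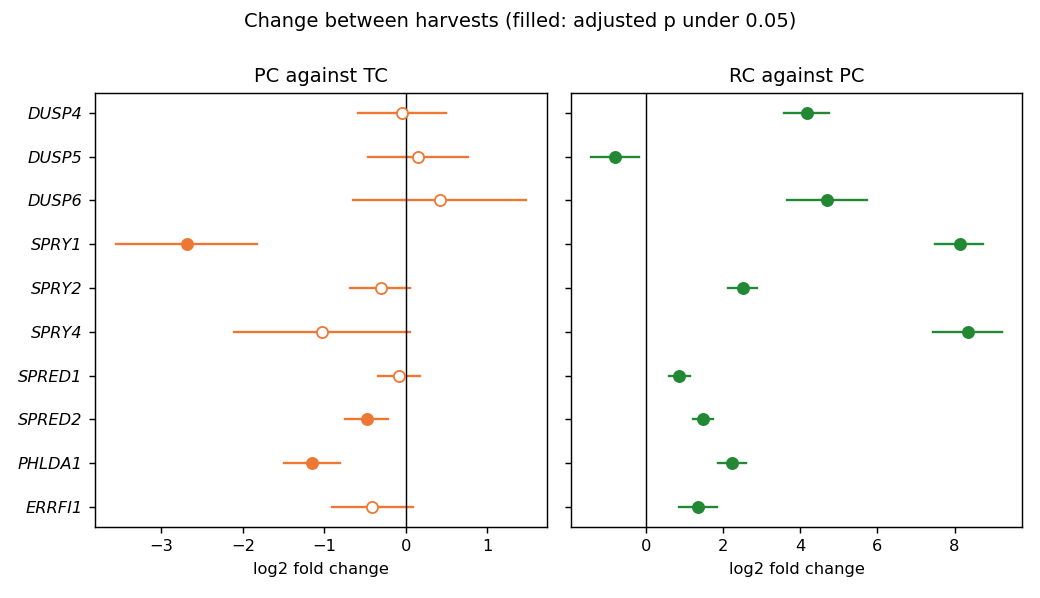
Log2 fold change of each member from TC to PC and from PC to RC, with its 95% interval from the edgeR fit of 3 libraries per group. Filled points passed an adjusted p under 0.05: from PC to RC 9 genes are to the right of 0 and DUSP5 is to the left.

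Over the 12 libraries, 9 members shared a pattern and DUSP5 did not. The Pearson correlation of each member's log2 CPM with the mean of the other members was -0.58 for DUSP5. It was between 0.915 (ERRFI1) and 0.994 (SPRY4) for the rest, as a description over libraries that share 4 groups. How many of all genes tested correlate as closely with the members was not counted. Among 11905 other genes with a mean scaled count of at least 100, the 5 most like the members' mean were PIM3 (0.998), SWAP70 (0.997), PDP2 (0.996), LIF (0.995) and N4BP2 (0.994). LIF, a cytokine, had 65.7 ± 40.8 CPM in CC, 6.72 ± 0.604 in TC, 5.31 ± 0.479 in PC and 50.4 ± 3.5 in RC. PIM3, a serine/threonine kinase, had 226 ± 42.0 CPM in CC, 70.7 ± 3.66 in TC, 54.9 ± 2.81 in PC and 193 ± 7.60 in RC. The same order of groups, CC and RC above TC and PC, held for SWAP70 (167 ± 51.3, 44.2 ± 4.50, 37.2 ± 1.47 and 146 ± 5.91 CPM in CC, TC, PC and RC).

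The members lie apart from each other in the genome. In GENCODE v44 on GRCh38, DUSP4 is on chromosome 8 (29333064 to 29350684, minus strand), DUSP5 on chromosome 10 (110497907 to 110511533, plus strand) and DUSP6 on chromosome 12 (89347235 to 89352501, minus strand). SPRY1 is on chromosome 4 (123396795 to 123403760, plus strand), SPRY2 on chromosome 13 (80335976 to 80341126, minus strand) and SPRY4 on chromosome 5 (142310427 to 142326455, minus strand). SPRED1 is on chromosome 15 (38252836 to 38357249, plus strand) and SPRED2 on chromosome 2 (65310851 to 65432637, minus strand). PHLDA1 is on chromosome 12 (76025447 to 76031776, minus strand) and ERRFI1 on chromosome 1 (8004404 to 8026309, minus strand). Only DUSP6 and PHLDA1 share a chromosome. The values are sums over the exons of each gene and do not separate its isoforms. A pseudogene listed as DUSP5P1 had at most 0.511 CPM in any library, against at least 9.90 CPM for DUSP5.

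Other negative regulators of the pathway moved in both directions, with counts to be read against the shares of all genes. Of the other MAPK phosphatases, 5 of 7 were tested (not DUSP8 and DUSP16). In TC 2 were lower and 1 higher than in CC by edgeR's test, against 34.7% and 33.2% of all genes. The median log2 fold change of the list was 0.19. Without CC replicate 3, 3 genes of the list were higher, against 34.1% of all genes. These were DUSP7 (0.46, adjusted p = 0.000453 by edgeR), DUSP10 (0.72, 3.9e-05) and DUSP1, and the median was 0.46. Without CC replicate 1 or CC replicate 2 the median was -0.02 or -0.01. DUSP2 fell by 2.88 ± 0.34 from 2.67 CPM in CC, and DUSP9, a cytoplasmic phosphatase of ERK like DUSP6, fell by 2.23 ± 0.14. DUSP9 had 22.0, 18.3 and 17.9 CPM in CC, 4.38, 4.17 and 3.81 CPM in TC, 4.26, 4.17 and 3.10 CPM in PC, and 16.5, 17.2 and 15.9 CPM in RC. DUSP1, an immediate early phosphatase with a preference for p38 and JNK, rose by 1.77 ± 0.21, from 8.12, 8.97 and 10.3 CPM in CC to 21.9, 28.2 and 42.9 CPM in TC. Of the family relatives, 2 of 4 were tested (not SPRY3 and PHLDA2). PHLDA3 fell by 0.86 ± 0.11, whereas SPRED3, at 0.23, was not called in TC (adjusted p = 0.212) and was lower in PC, by 0.54 ± 0.16 (adjusted p = 0.0104 by edgeR).

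Of 9 other RAS-ERK inhibitors, 2 were lower and 3 higher in TC, against 34.7% and 33.2% of all genes, with a median of -0.05. PEA15, which holds ERK in the cytoplasm, rose by 2.26 ± 0.13, from 104, 91.2 and 130 CPM in CC to 443, 523 and 592 CPM in TC, and it stood at 641, 672 and 684 CPM in PC and at 133, 134 and 129 CPM in RC. PEBP1, a RAF kinase inhibitor, rose by 1.13 ± 0.07, from 267, 292 and 240 CPM in CC to 538, 601 and 610 CPM in TC, and to between 909 and 943 CPM in PC. Both were back near CC in RC, with changes of 0.28 and 0.03 that were not called (adjusted p = 0.089 and 0.806 by edgeR), although PEA15 was called higher without CC replicate 3 (0.44, adjusted p = 0.00611). CBL, a ubiquitin ligase of receptors, fell by 0.54 ± 0.21 in TC (adjusted p = 0.0381 by edgeR), with CC libraries between 31.9 and 73.4 CPM. This call was lost under 9 of 18 alternatives, among them leaving out CC replicate 3 (-0.28, adjusted p = 0.214), CC replicate 1, or any 1 library of TC or RC, and then 1 gene of the list was lower. The other called genes, named after their values were seen, were RASA2, a RAS inactivator, at -0.45 ± 0.13, and CBLB, a relative of CBL, at 0.47 ± 0.11.

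Genes known as positive outputs of ERK had the lowest median of the other lists. Of 11 genes 10 were tested (not IER3), and in TC 6 were lower, all beyond 1.5-fold, and 2 higher, with a median log2 fold change of -2.73. The shares of all genes were 34.7% lower, 19.3% lower beyond 1.5-fold and 33.2% higher. ETV4, an ETS factor of the PEA3 group, fell by 6.49 ± 0.10, from 236, 230 and 238 CPM in CC to 2.77, 2.68 and 2.39 CPM in TC. Its relative ETV5 fell by 4.99 ± 0.11. EGR1 fell by 6.39 ± 0.95 but had 16.9, 19.7 and 182 CPM in CC, again with replicate 3 highest. Without that library its change was -4.39 (adjusted p = 5.0e-07 by edgeR), and DESeq2 gave it no adjusted p. The genes that rose in TC, named after their values were seen, were FOS (0.61 ± 0.24) and EPHA2 (0.71 ± 0.18), and FOS was not called without CC replicate 2 or without any 1 TC library (adjusted p between 0.0558 and 0.0856 by edgeR). In PC 6 output genes were lower and EPHA2 was higher, against 35.9% and 33.2% of all genes. In RC MYC and EPHA2 were lower than in CC, by 0.50 ± 0.13 and 0.60 ± 0.18, and 0 were higher. The shares of all genes in RC were 19.1% lower and 18.2% higher. In the absence of CC replicate 3, 3 output genes were higher in PC, against 34.3% of all genes. MYC was then the 1 output gene lower in RC, against 20.3%, while EPHA2 was at -0.44 (adjusted p = 0.0756 by edgeR). EPHA2 also lost its call in PC without CC replicate 1 or 2, or PC replicate 2 or 3, and in RC without CC replicate 1, or RC replicate 2 or 3. ETV4 had 234, 226 and 237 CPM in RC. Of the 18 genes of the cascade from adaptors to ERK, 4 were lower and 10 higher in TC, against 34.7% and 33.2% of all genes. The median of the cascade was 0.37. KSR2, a scaffold, rose by 4.83 ± 0.30 from 0.25 to 7.19 CPM, and KSR1, its relative, fell by 1.22 ± 0.17. The other genes that fell, named after their values were seen, were MAP2K2 (-0.48 ± 0.10), MAP2K1 (-0.25 ± 0.07) and MAPK3 (-0.21 ± 0.08), which encode the MEK kinases and ERK1. The call of MAPK3 was lost under 11 of 18 alternatives, including leaving out any 1 library of TC or RC, CC replicate 1 or 2, or PC replicate 2. The higher genes of the cascade numbered 13 without CC replicate 3, where 34.1% of all genes were higher.

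**Figure D5:**
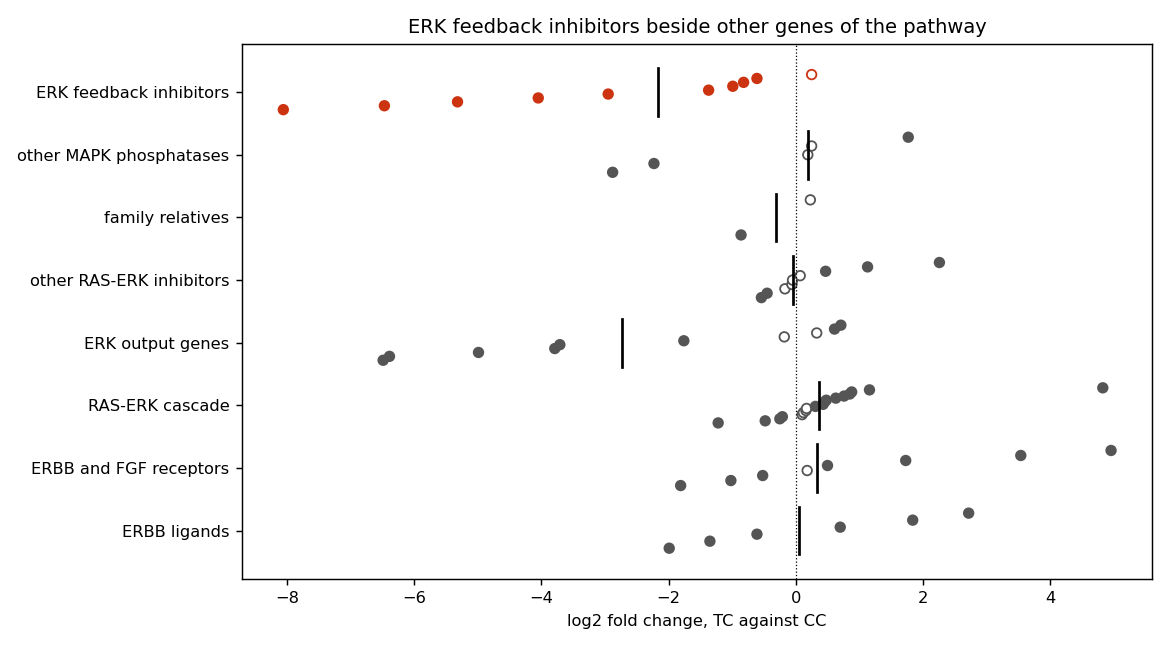
Log2 fold change in TC against CC of each tested gene, by list, with a vertical bar at the median of each list. Filled points passed an adjusted p under 0.05 by edgeR. Medians are below -2 for the feedback inhibitors (-2.16) and the ERK output genes (-2.73) and within 0.4 of 0 for the other lists.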

How the data were processed

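A375 RNA libraries (4 groups of 3) were analysed from the deposited raw read counts per gene, which carry no normalization. Per the labels and methods, the authors trimmed reads with fastp 0.20.1, aligned them to GRCh38.p13 with HISAT2 2.2.1 and counted them on exons of the NCBI annotation with HTSeq 0.13.5. Use of the strand and treatment of reads with several alignments are not given in the sources used here. The filter kept 15916 of 44659 genes, those whose counts, scaled by library size, averaged at least 10 over the 12 libraries. TMM factors ran from 0.965 to 1.02. In edgeR 4.0.16 (R 4.3.3), 1 quasi-likelihood model with group means took in all 12 libraries. It left 8 residual degrees of freedom, and the common biological CV was 0.182. Calls were made with glmQLFTest, two-sided, where the p adjusted by Benjamini-Hochberg was under 0.05, and calls beyond 1.5-fold with glmTreat, where the adjusted p did not exceed 0.05. Standard errors were derived from the F statistic.

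Levels are CPM with TMM-normalized library sizes, and means carry the SD of 3 libraries. The procedure was tested on simulated data. Pathway and marker lists were set up by hand from textbook knowledge, and the members and lists were chosen with earlier results of these data known. Named genes were the members, up to 3 called genes per pathway list with the largest change in TC, and the 5 genes most like the members' mean over the libraries. A gene that this rule names is not reported here. The correlation with the members' mean used log2 CPM with a prior count of 2. Coordinates and exon lengths came from GENCODE v44 (GRCh38), matched by symbol. Replicates of a group differed by more than sampling noise. Same-numbered libraries of different groups had deviations from their group means that correlated between -0.037 and 0.155, over 0.1 in 2 of 18 pairs. Libraries of other numbers correlated between -0.121 and 0.042, over 0.1 in 0 of 36 pairs. Between TC and PC the same-numbered values were 0.155, 0.068 and 0.124. Whether the numbers mark shared batches was not tested. The main fit did not treat the numbers as pairs, and a replicate block was used as an alternative. The 18 alternatives were RLE size factors, library totals, a filter at a summed count of 2, DESeq2 1.42.0, only the groups compared, a replicate block, and each of the 12 libraries left out in turn.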

Additional observations from a re-analysis of the deposited data

How the results depend on the processing

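Over the 5 comparisons and 18 alternatives, 875 of 900 member values kept their side of the threshold, 14 of them with a change of sign while not called, 13 lost their call, 11 gained a call and 1 reversed. The reversal came without CC replicate 3, where DUSP6 in RC against CC was 0.65 rather than -0.22 (-0.54 to 0.65 with any 1 library left out). Among the other pathway genes, 4979 of 5215 values kept their side, 78 of them with a change of sign while not called. Without CC replicate 3, FOSL1 in TC and DUSP10 in RC reversed against CC, with ranges over single libraries left out of -0.40 to 0.31 and -0.40 to 0.34, beside -0.18 and -0.19. With single libraries left out, members called higher ran from 0 to 1 in TC and in PC against CC, by both call rules, and from 0 to 4 in RC. Lower members beyond 1.5-fold in RC ran from 0 to 1. From TC to PC, lower members ran from 2 to 5, and beyond 1.5-fold from 1 to 2. From PC to RC, lower members ran from 0 to 1 by both call rules. With only the 2 groups compared in the fit, 5 members were lower from TC to PC (1 beyond 1.5-fold) and 1 was lower beyond 1.5-fold from PC to RC. With the replicate number as a block, 1 member in place of 0 was lower beyond 1.5-fold in RC against CC, and each library matched its own number best in 20 of 36 cases. No other count of members moved under the block by over 1.5 times. Apart from CC replicate 3 and the calls above, the cause of these shifts was not tested. Depth limits SPRY1 in PC, at 3 or 4 counts per library.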

Other observations

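Receptors upstream of the feedback inhibitors moved in both directions in TC, with counts to be read against the shares of all genes. Of 8 ERBB and FGF receptor genes, 3 were lower and 4 higher than in CC by edgeR's quasi-likelihood test. By the same test 34.7% of all genes were lower and 33.2% higher. The receptors had a median log2 fold change of 0.34. EGFR, a receptor that ERRFI1 inhibits, fell by 1.81 ± 0.17 (SE), from 5.97, 5.11 and 5.65 CPM in CC to 1.76, 1.61 and 1.4 CPM in TC, and stood at 1.05, 0.891 and 1.16 CPM in PC and at 2.88, 3.65 and 3.03 CPM in RC. FGFR3 had 2.2, 1.72 and 2.56 CPM in CC, 5.47, 18.7 and 50.9 CPM in TC, 33.4, 37.7 and 44 CPM in PC and 0.96, 1.55 and 1.08 CPM in RC. Its TC libraries thus spread over a wide range, all above CC. FGFR2 had between 0 and 0.0452 CPM in CC, which is under the level of 3 counts, between 0.332 and 0.895 CPM in TC and between 1.75 and 2.52 CPM in PC.

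Of 7 ERBB ligand genes, 6 were tested (not EREG). In TC 3 were lower and 3 higher, against 34.7% and 33.2% of all genes, with a median of 0.04 for the ligands. The median was -0.13 without CC replicate 3, and NRG1, 1 of the 3 higher genes, was not called (0.51, adjusted p = 0.116 by edgeR). BTC rose by 2.72 ± 0.23, from 0.866 to 5.74 CPM, and HBEGF by 1.84 ± 0.23, from 11.0 to 39.4 CPM. AREG fell by 1.99 ± 0.47, from 0.80 to 0.201 CPM.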
